A study of Homo sapiens with 15 samples.

Results

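The NF-κB transcription factors and their inhibitors were examined as a set of 10 genes: the subunits NFKB1, NFKB2, RELA, RELB and REL, the inhibitors of the IκB family NFKBIA, NFKBIB, NFKBIE and NFKBIZ, and TNFAIP3, which encodes the deubiquitinating enzyme A20. A gene was measured by every probe of the array whose accession belongs to it in the RefSeq gene table. Of the 20503 genes named in this way, these 10 were chosen by symbol and not by their values. Of the 10 genes, 9 had a matching probe, with 11 probes in all, and 8 genes with 10 probes were bright enough to be tested. NFKB2 had no probe with a matching accession and was not analysed here, and the only probe of TNFAIP3 was not well above background on any array.

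The cells were SCC13, a line from a squamous cell carcinoma of human skin, stably transfected with a plasmid expressing TLR4 fused to GFP (SCC13-TLR4) or with the control plasmid pUNO (SCC13-pUNO), and both were selected with blasticidine. The question was how TLR4, the receptor for bacterial lipopolysaccharide (LPS), changes the transcriptome of these cells with and without its ligand. The 4 groups were untreated SCC13-pUNO cells (4 arrays), untreated SCC13-TLR4 cells (3 arrays), SCC13-pUNO cells treated with 10 µg/ml ultrapure LPS (4 arrays) and SCC13-TLR4 cells treated likewise (4 arrays), all profiled at 24 h. The replicates were seeded in parallel from the same transfected cells of each line, so their spread, and any p-value from it, covers parallel cultures and not separate transfections. The control line carries plasmid and selection but no added receptor. The SCC13-TLR4 cells were also sorted, and the fraction with the highest GFP signal was used. The paper describes no such sort for the control line. In a line difference the receptor, the fused GFP and the sort therefore cannot be told apart.

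NF-κB proteins are dimers that bind κB sites in DNA. At rest, IκB proteins such as IκBα (NFKBIA) hold the dimers in the cytoplasm, and signals from receptors such as TLR4 lead to IκB degradation and to entry of the dimers into the nucleus. There they switch on many genes of inflammation and survival, among them genes of their own inhibitors, so that NFKBIA and TNFAIP3 are known as fast negative feedback. The subunits themselves are regulated largely after translation, and the array measures only the level of their RNA.

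The promoters were searched for the letters of the κB consensus, since κB sites are the element through which the pathway can act on its own genes. RefSeq promoters (GRCh38.p14, 250 bases before to 50 bases after the transcript start) were at hand for 8 of the 10 members, all but RELB and NFKBIE, as 14 promoters. The κB consensus, searched on both strands, was found in 9 of these 14 promoters and in 7 of the 8 genes. Over all 35116 promoters of the table it was found in 5.91%, and over all 27305 genes in 7.09%. A looser pattern, GGGNNNNNCC, was found in 14 of 14 member promoters and in 58.7% of all promoters. Every consensus match also meets the looser pattern, and a palindromic element can match on both strands. A match describes the letters of the window and does not show that NF-κB binds there.

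The 250 bases before the start are printed for both a subunit with 1 match (NFKB1) and one with overlapping matches (REL), and for the feedback inhibitors NFKBIA and TNFAIP3. They run 5′ to 3′ along the gene, with the consensus matches in capitals.
NFKB1 (chr4:102501109-102501358, plus strand): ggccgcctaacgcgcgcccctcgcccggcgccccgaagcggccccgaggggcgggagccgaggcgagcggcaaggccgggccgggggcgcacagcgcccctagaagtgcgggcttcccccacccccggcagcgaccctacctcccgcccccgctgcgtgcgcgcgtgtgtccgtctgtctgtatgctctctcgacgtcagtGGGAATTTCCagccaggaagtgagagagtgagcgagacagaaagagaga
REL (chr2:60881324-60881573, plus strand): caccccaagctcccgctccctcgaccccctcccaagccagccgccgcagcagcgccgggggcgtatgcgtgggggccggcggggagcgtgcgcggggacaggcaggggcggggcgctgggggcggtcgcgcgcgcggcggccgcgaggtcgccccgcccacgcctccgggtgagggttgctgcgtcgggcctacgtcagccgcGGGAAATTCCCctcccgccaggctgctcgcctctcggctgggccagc
NFKBIA (chr14:35404750-35404999, minus strand): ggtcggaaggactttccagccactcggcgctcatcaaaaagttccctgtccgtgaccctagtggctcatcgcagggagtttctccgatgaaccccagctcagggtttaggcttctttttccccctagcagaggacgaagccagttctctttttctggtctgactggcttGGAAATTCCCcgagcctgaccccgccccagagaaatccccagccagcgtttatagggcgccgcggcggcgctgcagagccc
TNFAIP3 (chr6:137867009-137867258, plus strand): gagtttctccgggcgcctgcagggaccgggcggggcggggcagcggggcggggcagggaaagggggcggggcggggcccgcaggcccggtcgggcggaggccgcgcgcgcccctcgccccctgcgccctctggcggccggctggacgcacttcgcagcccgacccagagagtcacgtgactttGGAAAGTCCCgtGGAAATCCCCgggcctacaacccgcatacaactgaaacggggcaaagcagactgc

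Counted from the transcript start, the match of NFKB1 began at -49 and that of NFKBIA, on the other strand, at -81. In REL the capitals hold 2 matches shifted by 1 base and facing opposite ways, at -47 and -46. TNFAIP3 had 2 neighbouring matches, at -67 and -55, both on the other strand. Among the promoters not printed, NFKB2 had 4 matches in its second promoter, including GGGAATTCCC on both strands, and its promoter farthest downstream had 2. The second promoter of NFKBIB held GGGAATTTCC, as did the first promoter of NFKBIZ, the same letters as in NFKB1. RELA, which encodes the p65 subunit, had no match in either of its 2 promoters.

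**Figure D1:**
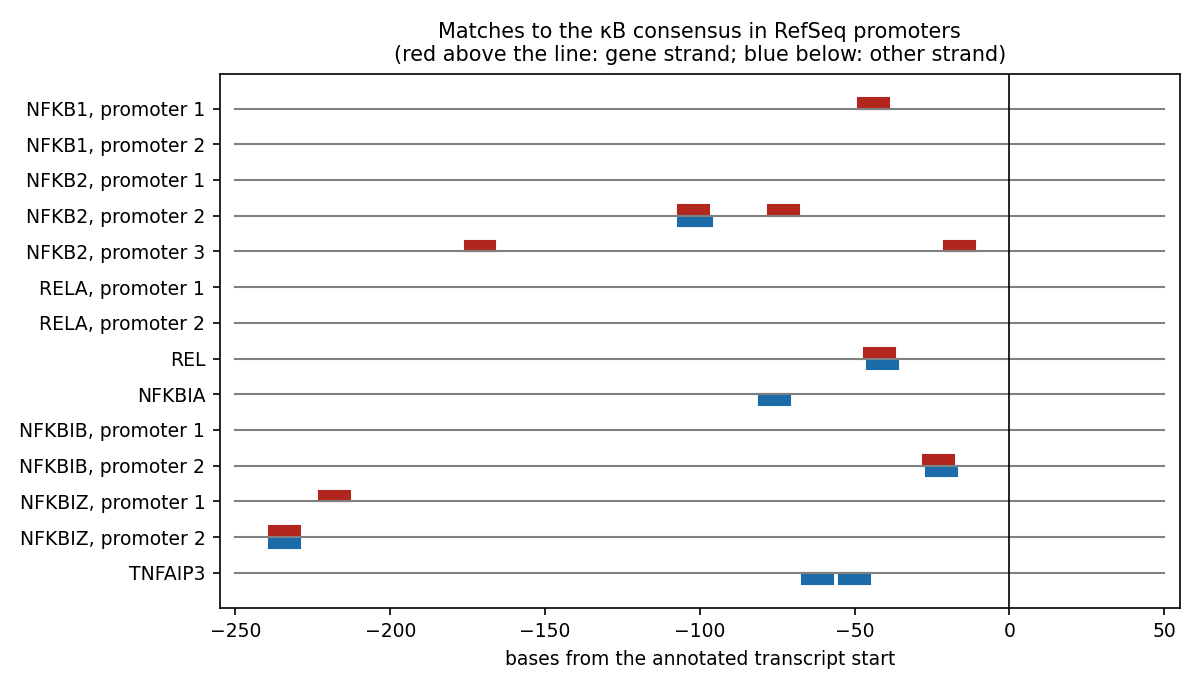
Position of each match to the κB consensus in the 14 RefSeq promoters of 8 member genes, in bases from the transcript start, with matches on the strand of the gene above the line and matches on the other strand below it. Of the 14 promoters 9 held a match, and both promoters of RELA held none.

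Each intensity is given as a log2 value from which the array's 75th percentile was subtracted, so that 0 is a spot as bright as that percentile. The percentile itself lay between 192 and 420 intensity units over the arrays, and between 47.1% and 56.2% of the spots were well above background. The keratinocyte markers fixed for a check of the cell type were well above background on all 15 arrays for 9 of 10 genes, and the fibroblast markers were so on no array for 5 of 6. The arrays lay on 2 slides, each with 2 columns. TLR4 itself was read at 1 of its 2 probes, and the other was well above background on 0 of 15 arrays, those of SCC13-TLR4 included. At the probe read, replicate 2 of untreated SCC13-pUNO was at 3.04. The arrays of SCC13-TLR4 read 2.84 to 3.19 and the other 7 SCC13-pUNO arrays -6.40 to -3.80. Replicate 2 of untreated SCC13-pUNO, which goes against its label at this probe, also lay in the slide row in which the other 3 slide columns held untreated SCC13-TLR4 arrays. It was kept under its label, and where leaving it out turned the sign of the difference of a member gene, read at the probe that stands for it, or moved it by over 1.5 times, the value without it is given too. The position in the slide row and the group cannot otherwise be told apart. In bulk RNA, fewer cells expressing a gene and less RNA per cell cannot be told apart.

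None of the member genes passed the test in any comparison of groups. In 6 comparisons, fitted with limma over 22685 probes, 0 of the 8 genes passed an adjusted p of 0.05 and 0 passed an unadjusted p of 0.05. Over all probes, the share past the adjusted threshold was 0% for SCC13-TLR4 against SCC13-pUNO without LPS and 0% with LPS, 0% for LPS in SCC13-pUNO cells and 0% in SCC13-TLR4 cells, 0.022% for the line difference pooled over both conditions, and 0% for the difference between the lines in the response to LPS. The shares at an unadjusted p under 0.05 were, in the same order, 2.5%, 2.72%, 2.48%, 1.33%, 4.33% and 1.32%, so a count of 0 among 8 genes is close to what the whole array gives. The line groups of 0 members failed to overlap in both conditions with the same direction, against 0.141% of all probes. Without replicate 2 of untreated SCC13-pUNO, 7 probes passed the adjusted threshold for the untreated lines, 10 for the lines with LPS and 23 for the pooled line difference, with 0 member genes among them. The untreated line difference then was -0.30 for NFKBIZ (-0.15 with the array), -0.07 for NFKBIE (-0.03 with it), 0.10 for REL (0.06 with it) and 0.0073 for NFKBIB (-0.06 with it). LPS minus untreated in SCC13-pUNO cells was 0.09 for NFKBIZ (0.23 with the array), -0.04 for NFKBIA (0.02 with it), 0.03 for REL (-0.01 with it), -0.05 for NFKBIB (-0.11 with it) and -0.04 for NFKBIE (-0.01 with it). For the difference between the lines in the LPS response, NFKBIZ was at -0.11 (-0.26 with the array) and NFKBIB at 0.10 (0.17 with it), and REL (-0.03), NFKBIA (0.0087) and NFKBIE (0.02) turned sign. The pooled line difference of NFKBIB was 0.06 (0.03 with the array) and that of RELA -0.01 (0.0019 with it). The intervals of all these values held 0. The comparisons share groups with each other, and their values for a gene are therefore not independent.

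The intervals bound what the arrays could miss. They come from the fit without slide or slide column, so differences between slides enter the spread behind them. No bound with slide as a factor is given. Over the 8 genes, the log2 difference between the untreated lines lay between -0.18 and 0.06. The 95% confidence intervals reached from -0.81 to 0.51, so that a decrease of up to 1.76-fold in 1 of the genes, NFKBIZ, is within them. Without replicate 2 of untreated SCC13-pUNO, the NFKBIZ interval for the untreated lines ran from -0.995 to 0.397, which goes beyond this bound. With LPS the line difference lay between -0.41 and 0.16, with intervals from -1.02 to 0.62 and a bound of 2.03-fold. LPS minus untreated lay between -0.19 and 0.23 in SCC13-pUNO cells (bound 1.80-fold), where the highest value, that of NFKBIZ, was 0.09 without replicate 2 of the untreated cells, and between -0.03 and 0.18 in SCC13-TLR4 cells (bound 1.61-fold). The difference between the lines in this response lay between -0.26 and 0.32, with a bound of 2.24-fold. Over all probes the middle 90% of the untreated line differences ran from -0.32 to 0.59, and the median of the 8 genes was -0.12 against -0.02 over all probes. This lower median did not hold with slide as a factor, where the 8 values lay between -0.14 and 0.15 and NFKB1 (0.033), RELA (3.5e-05), RELB (0.031), NFKBIB (0.15) and NFKBIE (0.091) turned from below to above 0. A p above the threshold does not show that the groups were alike. Each bound is the largest over the 8 genes, and other genes had narrower intervals. For REL the bound between the untreated lines was 1.26-fold. Changes larger than a bound are outside the intervals of all 8 genes, as fitted with all arrays kept and without slide.

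**Figure D2:**
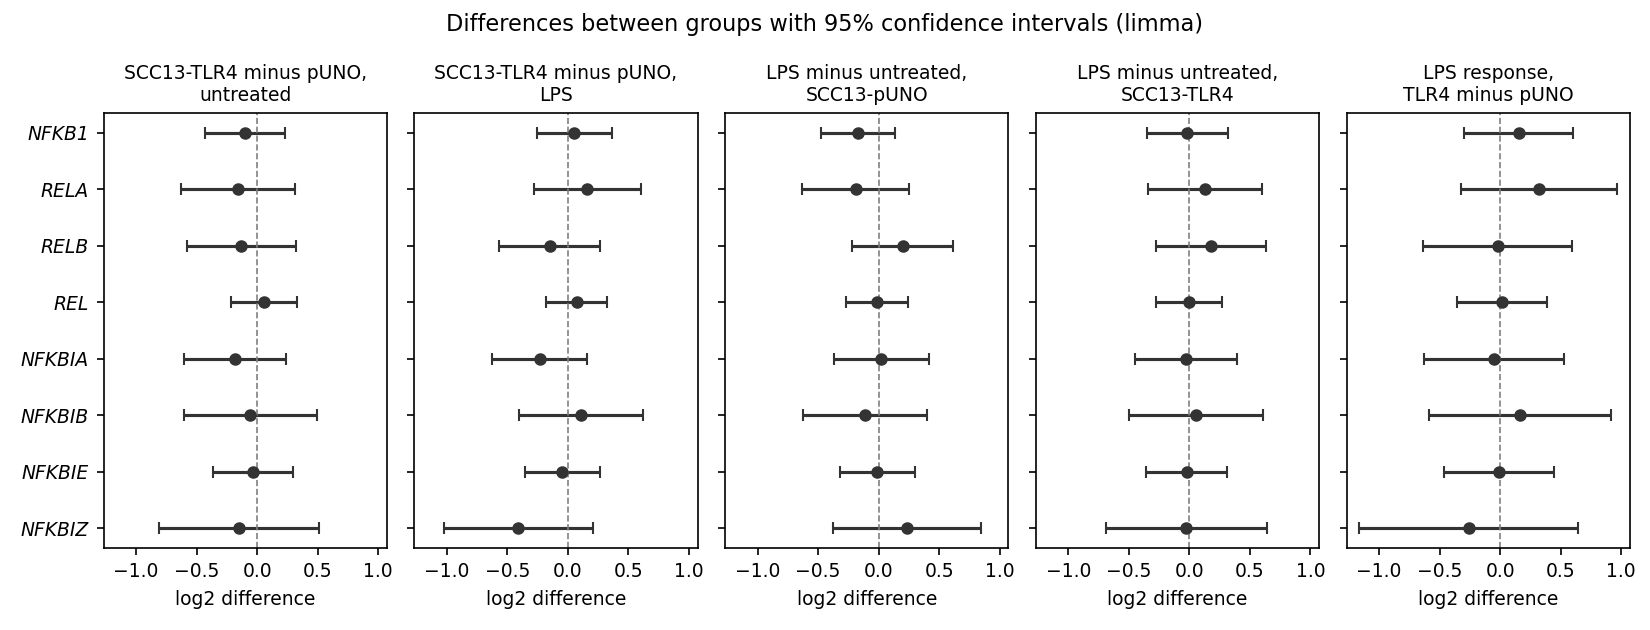
Log2 difference of each of the 8 member genes in 5 comparisons, as points with 95% confidence intervals from limma, and a dashed line at 0. Every interval holds 0, and the widest are those of NFKBIZ.

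NFKB1 encodes p105, which is processed to the DNA-binding subunit p50. Its log2 intensity was 3.13, 2.97, 3.03 and 2.69 in untreated SCC13-pUNO cells and 3.08, 2.71 and 2.77 in untreated SCC13-TLR4 cells. The LPS-treated arrays read 3.05, 2.85, 2.53 and 2.71 in SCC13-pUNO cells and 2.94, 3.01, 2.68 and 2.73 in SCC13-TLR4 cells. The groups overlapped in every pairing, and the lowest mean (2.79 ± 0.22, SD, n = 4, SCC13-pUNO with LPS) and the highest (2.96 ± 0.19, SD, n = 4, untreated SCC13-pUNO) differed by less than 1 SD. The untreated line difference was -0.10 (SE 0.15, limma adjusted p = 0.999), yet it was 0.039 within slide 1 and 0.050 within slide 2. Of the untreated arrays, 3 of 4 from SCC13-pUNO but 1 of 3 from SCC13-TLR4 were on slide 1. That SCC13-TLR4 array read 3.08, and the untreated SCC13-pUNO array of the same slide column read 3.13. The probe was spotted 10 times on each array, and the SD over its spots (median 0.043) was well below the SD between arrays within groups (0.19).

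RELA encodes p65, the transactivating partner of p50, and was read by a pair of probes. The probe that stands for the gene ran from 0.85 to 1.68 over the 15 arrays with a median of 1.19, and the other, spotted 10 times, from 0.90 to 1.25 with a median of 1.17. Their fitted differences between the untreated lines were -0.16 (SE 0.22) and -0.02 (SE 0.11), and with LPS they were 0.16 (SE 0.20) and 0.06 (SE 0.10). The probe with 10 spots gave narrower intervals, with the line difference with LPS between -0.16 and 0.28. For it, LPS minus untreated was -0.07 in SCC13-pUNO cells and 0.02 in SCC13-TLR4 cells (SE 0.10 and 0.11).

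RELB, the partner of p52 in the noncanonical arm of the pathway, was 2.64, 2.38, 2.47 and 2.02 in untreated SCC13-pUNO cells and 2.60, 2.12 and 2.02 in untreated SCC13-TLR4 cells. The LPS-treated arrays read 2.66, 2.58, 2.75 and 2.30 in SCC13-pUNO cells and 2.83, 2.55, 2.32 and 2.01 in SCC13-TLR4 cells. LPS-treated SCC13-pUNO cells had the highest mean, but their arrays overlapped with those of every other group. LPS minus untreated was 0.20 (95% CI -0.22 to 0.62) in SCC13-pUNO cells and 0.18 (95% CI -0.27 to 0.63) in SCC13-TLR4 cells, and the exact permutation test gave p = 0.286 and p = 0.571. REL, which encodes the c-Rel subunit best known from lymphocytes, ran from -1.10 to -0.59 over all arrays with the smallest SD (0.13) of the genes read by a single probe. Its line difference was 0.06 (95% CI -0.21 to 0.33; 0.10 without replicate 2 of untreated SCC13-pUNO) without LPS and 0.07 (95% CI -0.18 to 0.33) with LPS.

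**Figure D3:**
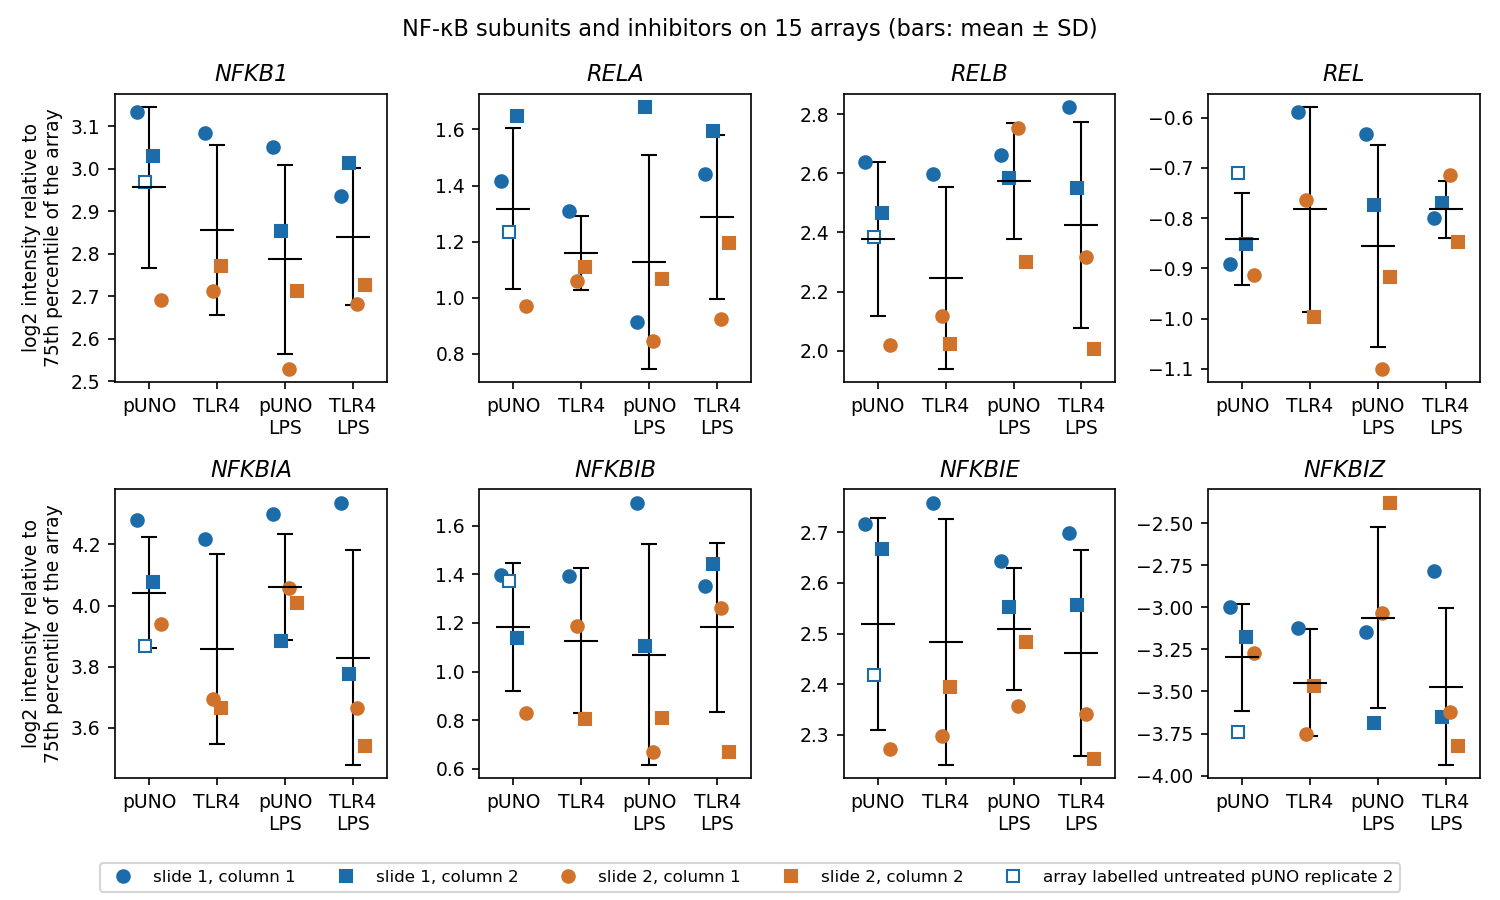
Log2 intensity, with the 75th percentile of each array at 0, for the 8 member genes in the 4 groups, 1 panel per gene, with colour for the slide, shape for the slide column, and bars for mean ± SD. The groups overlap in every panel, and replicate 2 of untreated SCC13-pUNO is drawn as an open square.

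NFKBIA, the IκBα gene and the classical feedback target, was 4.28, 3.87, 4.08 and 3.94 in untreated SCC13-pUNO cells and 4.22, 3.69 and 3.66 in untreated SCC13-TLR4 cells. The LPS-treated arrays read 4.30, 3.88, 4.06 and 4.01 in SCC13-pUNO cells and 4.34, 3.78, 3.66 and 3.54 in SCC13-TLR4 cells. The first array of each group was the highest and all 4 of these lay on the same slide column, while the remaining SCC13-TLR4 arrays were the lowest. LPS minus untreated was 0.02 (SE 0.18, 95% CI -0.37 to 0.41) in SCC13-pUNO cells and -0.03 (SE 0.20, 95% CI -0.45 to 0.39) in SCC13-TLR4 cells at 24 h. Pooled over both conditions, the log2 difference of NFKBIA, SCC13-TLR4 minus SCC13-pUNO, was -0.21 (SE 0.13, 95% CI -0.50 to 0.08, limma adjusted p = 0.996), which does not pass the test. Leaving out replicate 2 of untreated SCC13-pUNO gave -0.24 (SE 0.14, limma adjusted p = 0.999). Without LPS the line difference was 0.14 within slide 1 and -0.26 within slide 2, in opposite directions. The value of slide 1 rested on 1 SCC13-TLR4 array, at 4.22 in the first column, where the SCC13-pUNO array read 4.28. The other untreated SCC13-pUNO arrays of slide 1, at 3.87 and 4.08, lay in its second column. In the first column of slide 2, untreated SCC13-TLR4 read 3.69 and untreated SCC13-pUNO 3.94. The 2 directions are therefore not separate from the slide column. The line difference with LPS was -0.04 within slide 1 and -0.43 within slide 2. Its probe had 10 spots with a median SD of 0.063 on an array, against 0.26 between arrays within groups.

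NFKBIB and NFKBIE encode IκBβ and IκBε, inhibitors that are degraded more slowly than IκBα. The NFKBIB probe that stands for the gene ran from 0.67 to 1.69, and the second probe, whose accession is a noncoding transcript, from 0.19 to 1.10. Their untreated line differences were -0.06 and 0.02, and their LPS differences in SCC13-TLR4 cells were 0.05 and -0.03, of opposite sign and all smaller than their SE. NFKBIE ran from 2.25 to 2.76, and its 6 fitted differences lay between -0.05 and -0.01. Its line difference was -0.03 (95% CI -0.37 to 0.30) without LPS and -0.05 (95% CI -0.36 to 0.26) with LPS.

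NFKBIZ encodes IκBζ, an atypical nuclear IκB protein that acts as a coactivator for some NF-κB targets. It was faint but well above background on all 15 arrays, at -2.99, -3.74, -3.17 and -3.27 in untreated SCC13-pUNO cells and -3.12, -3.75 and -3.47 in untreated SCC13-TLR4 cells. The LPS-treated arrays read -3.15, -3.69, -3.03 and -2.38 in SCC13-pUNO cells and -2.78, -3.65, -3.62 and -3.83 in SCC13-TLR4 cells. The highest array was a SCC13-pUNO array with LPS and the lowest a SCC13-TLR4 array with LPS. The line difference with LPS was -0.41 (SE 0.28, 95% CI -1.02 to 0.20, limma adjusted p = 1.00), and the SCC13-TLR4 array was the higher one in 5 of the 16 pairings (2-sided exact permutation test, p = 0.343, where the smallest possible p is 0.0286). It was 0.20 within slide 1 and -1.02 within slide 2, in opposite directions, with 2 arrays of each line on a slide. TNFAIP3, whose product A20 removes ubiquitin chains from the signalling complex, was between -6.38 and -4.62 and well above background on 0 of 15 arrays, so no fold difference is given for it.

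Member genes differed between the slides. With slide as a factor beside the 4 groups, 8 of 8 genes were lower on slide 2, as were 14207 of all 22685 probes. Of the 8 genes, 5 passed an adjusted p of 0.05, where 34.7% of all probes were called lower on slide 2. The median difference of the 8 genes was -0.31 against -0.13 over all probes. The 5 genes were NFKB1 at -0.32, RELA at -0.38, RELB at -0.39, NFKBIB at -0.50 and NFKBIE at -0.30, with limma adjusted p between 0.000426 and 0.0153. NFKBIA was at -0.28 (adjusted p = 0.0521), REL at -0.17 (adjusted p = 0.0631) and NFKBIZ at -0.03 (adjusted p = 0.925). The second RELA probe was at -0.18 (adjusted p = 0.00998). NFKB1 did not overlap between the slides, with 2.85 to 3.13 on slide 1 and 2.53 to 2.77 on slide 2. The share of all probes without overlap between the slides was not counted. The direction held in 8 of 8 genes with median scaling, quantile normalization and normexp, with 7, 6 and 7 genes called. Of all probes, 44.7%, 31.2% and 29.8% were called lower, and for these scalings the share lower without a threshold was not counted. Median scaling also moved the median of all probes to -0.32, from -0.13. The cause of the slide difference was not tested.

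Arrays in 1 column of slide 1 also stood apart for some members. The first column of slide 1 held 1 array of each of the 4 groups, and the comparison of this column with the mean of the other 3 columns was chosen after the values had been seen. Since 2 of those 3 columns were on slide 2, the comparison holds part of the slide difference. All 8 genes were higher in the first column of slide 1, as were 13765 of 22683 probes. Of the 8 genes, 5 passed an adjusted p of 0.05, where 22.1% of all probes were called higher. NFKBIA was higher by 0.46 (SE 0.08, 95% CI 0.29 to 0.63, limma adjusted p = 0.00191), with the 4 arrays at 4.22 to 4.34 and the other 11 at 3.54 to 4.08. The 4 arrays, 1 of each group, did not overlap with the rest, nor with the second column of the same slide, at 3.78 to 4.08. How many of all probes separate this column in the same way was not counted. NFKB1 overlapped between these columns of slide 1, at 2.94 to 3.13 and 2.85 to 3.03. NFKBIE was higher by 0.29, NFKB1 by 0.26, RELB by 0.39 and NFKBIB by 0.45, with adjusted p between 0.00456 and 0.0163. RELA (0.06), REL (0.12) and NFKBIZ (0.41) did not pass. With other scalings the direction held in 8 of 8 genes, and 3 passed with median scaling, 4 with quantile normalization and 5 with normexp. Of all probes, 10.9%, 14.3% and 18.1% were called higher, and the share higher without a threshold was not counted for them.

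**Figure D4:**
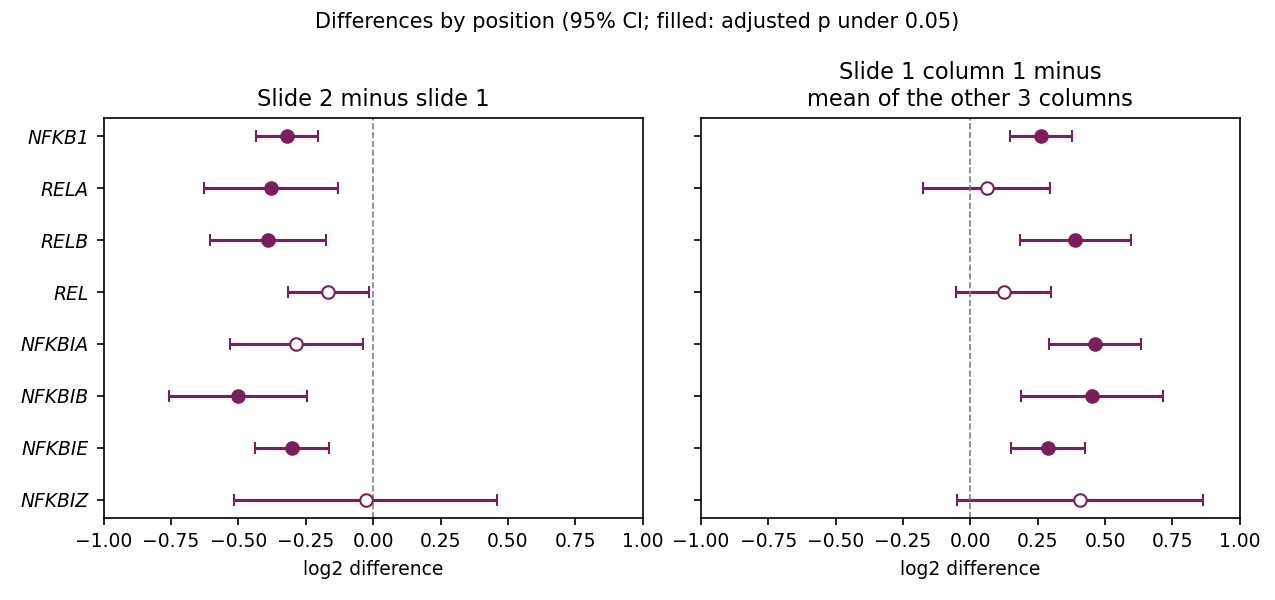
Log2 difference of the 8 member genes between the slides and between the first column of slide 1 and the other 3 columns, with 95% confidence intervals from limma fits that hold the 4 groups, filled where the adjusted p is under 0.05. In each panel 5 of 8 points are filled, and all points lie on the same side of 0.

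**Figure D5:**
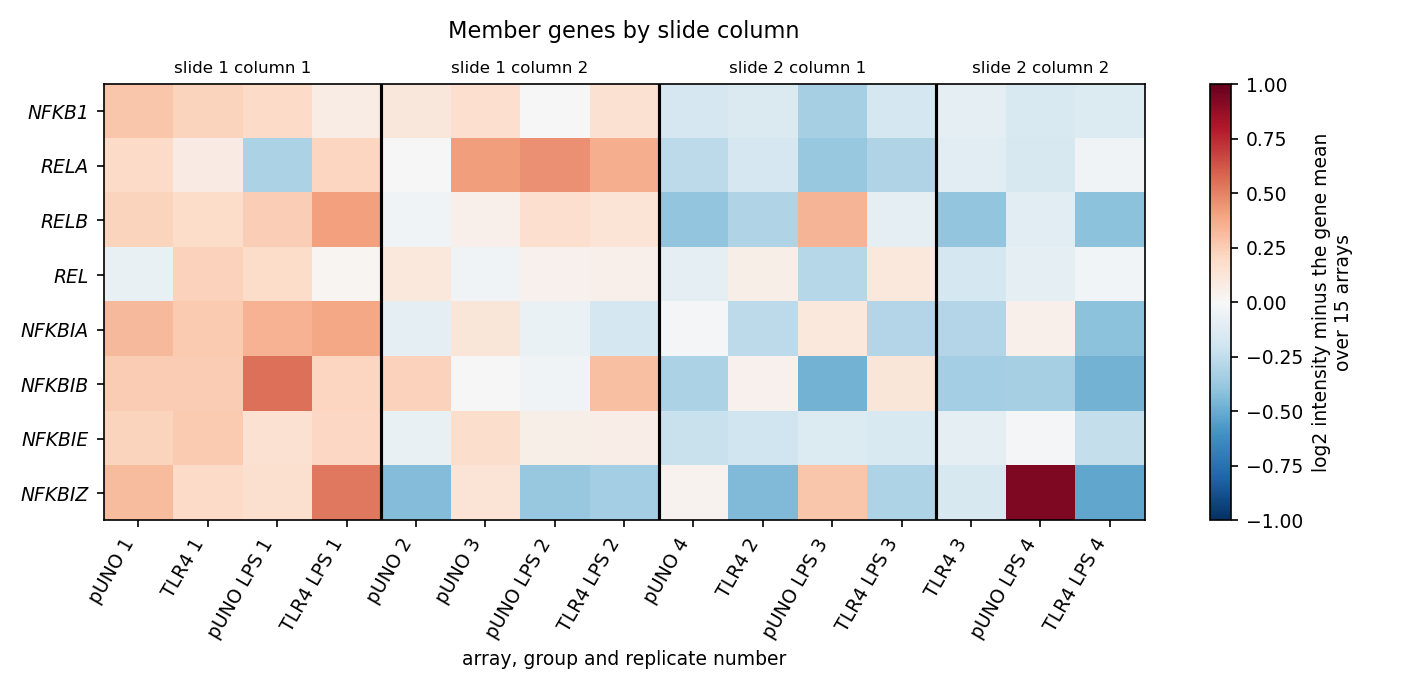
Log2 intensity of each member gene minus its mean over the 15 arrays, with arrays ordered by slide column. The 4 arrays of the first column of slide 1 are above the gene mean in most genes, and the arrays of slide 2 are below it in most.

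Across the 15 arrays some members varied with NFKBIA and others did not. With the slide mean taken off, NFKBIA correlated with NFKBIZ at r = 0.87, with NFKBIE at 0.67 and with RELB at 0.61. Its r was 0.02 with NFKB1, 0.02 with NFKBIB, -0.27 with REL and -0.49 with RELA. These are descriptions over arrays that share slide columns and groups. Of 12899 genes compared over the same arrays, those most like NFKBIA were IER5 (r = 0.98), SMIM29 (0.97), EEIG1 (0.96), BFSP1 (0.95) and PSMD2 (0.95). TNFAIP3 was too faint for such a comparison.

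Other genes of the pathway were taken in 5 lists. By the adjusted p, 0 genes passed in either direction in any list and any of the 6 comparisons. The lists held 3 tested genes of other IκB family members, 9 of the IKK complex and the noncanonical arm, 12 of other brakes on NF-κB, 11 of 22 NF-κB target genes (with 7 of the 22 well above background on no array) and 8 of coactivators and modifiers of RelA. Their median pooled line differences were -0.25, -0.05, -0.01, -0.01 and -0.11, against -0.01 over all probes, and in 0 genes did the line groups fail to overlap in both conditions. At an unadjusted p under 0.05 only IL1B and ITCH were counted, and both are named after their values were seen. Of all probes, between 1.32% and 4.33% passed this threshold in the 6 comparisons. IL1B, which encodes the cytokine interleukin-1β, was between -3.57 and -3.11 in untreated SCC13-pUNO cells, -3.10 and -2.69 in untreated SCC13-TLR4 cells, -3.21 and -2.82 in SCC13-pUNO cells with LPS and -3.16 and -2.94 in SCC13-TLR4 cells with LPS. The untreated arrays of the lines did not overlap, by a narrow gap between -3.109 in SCC13-pUNO and -3.104 in SCC13-TLR4 cells. Those with LPS overlapped. The share of all probes without overlap between the untreated lines was not counted. The untreated line difference was 0.44 (SE 0.15), LPS minus untreated was 0.33 (SE 0.14) in SCC13-pUNO cells and -0.18 (SE 0.15) in SCC13-TLR4 cells, and the difference between these responses was -0.51 (SE 0.20, limma adjusted p = 1.00). ITCH, an E3 ubiquitin ligase that works with A20, had a pooled line difference of -0.19 (SE 0.07, limma adjusted p = 0.996). NFKBIL1, an IκB-like gene, had a difference of 4.18 (SE 2.48, limma adjusted p = 1.00) for LPS in SCC13-TLR4 cells, and it rested on untreated SCC13-TLR4 replicate 1, at -6.52 and not well above background where the other 14 arrays were between 4.15 and 8.31. Without that array it was -0.26.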

How the data were processed

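Total RNA of 15 cultures was labelled with Cy3 and hybridized to 1-colour Agilent arrays of 50599 probes. The authors deposited 1 spot intensity per feature on a linear scale, as background-subtracted and detrended by the Agilent scanner software, with no normalization between arrays. The deposited flags of the software (outlier spots, well above background) were used as given. Here each array's 75th percentile was subtracted from the log2 values, outlier spots were left out, and spots of a probe were averaged. A probe counted as well above background with at least 0.5 of its spots so marked, and was tested where this held throughout 1 group or more (22685 probes). A gene was read at its brightest tested probe.

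The fit used limma 3.58.1 (R 4.3.3) on the 15 arrays, with 1 mean for each group, moderated variances, and p-values adjusted by Benjamini-Hochberg (threshold 0.05). Single genes were also compared by 2-sided exact permutation tests. The arrays carry no read depth, and their number limits the precision. The main fit held neither slide nor slide column, so differences between these enter its spread. The alternatives were normexp (offset 50, on median spot and background intensities, since these are the columns used), quantile normalization, median scaling, other filters, outlier spots kept, array weights, trend and robust moderation, a replicate block, slide, slide column, fewer groups, the mean over probes of a gene, and each array left out. Tables were read with Python 3.11.15.

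The members, gene lists and tests were chosen with earlier results of these data known. Named were all members. Of the lists, the rule named genes past the adjusted threshold or whose line groups did not overlap in both conditions, which gave 0 genes. Markers of leukocytes, melanocytes and endothelium were well above background on all arrays for 3 of 6, 1 of 4 and 1 of 4 genes with a probe.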

Additional observations from a re-analysis of the deposited data

Results flagged for a closer look

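Of 33 groups of 4 arrays looked at, for the 8 member genes and IL1B, ITCH and NFKBIL1, 1 held an array far from the others, where chance gives about 1 in 20, or 1.65. This was ITCH in LPS-treated SCC13-TLR4 cells, with replicate 2 at -0.893 and the other 3 arrays close together, between -0.812 and -0.805. In LPS-treated SCC13-pUNO cells ITCH spread wider, from -0.886 to -0.525. The untreated SCC13-TLR4 group has 3 arrays and was not looked at in this way. It holds the NFKBIL1 array at -6.52.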

How the results depend on the processing

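The 8 member genes with a tested probe kept 0 calls in every comparison fitted under the 15 alternatives and with each of the 15 arrays left out. The alternative with only the 2 groups compared gave no pooled line difference and no difference in LPS response. Over the alternatives this covered 704 fitted differences, of which 614 kept their sign, and the smallest adjusted p was 0.0971. With 1 array left out, 634 of 720 kept their sign and the smallest adjusted p was 0.63. The sign changes concerned differences of at most 0.26 on the log2 scale, whose intervals held 0, and their cause was not tested. The deposited value table of the series held the same intensities as the scanner files, so that alternative repeats the values given and was not run apart. 

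Counts of probes called moved as follows, over 22685 probes except for 50599 without a filter and 19477 with the filter on all 15 arrays. Against 0 without an alternative, the untreated line difference called 12 probes with array weights, 11 with slide as a factor without replicate 2 of untreated SCC13-pUNO, and 12 with slide column as a block without that array. The line difference with LPS called 5 with only the 2 groups compared, 22 with slide as a factor without that array and 17 with slide column as a block without it. The pooled line difference, with 5 calls, had 0 with quantile normalization, 0 with the filter on all 15 arrays, 0 with outlier-marked spots kept, 0 with array weights, 0 with trend and robust moderation, 2 without a filter, 22 with slide as a factor, 49 with slide as a factor without that array, 1 with slide column as a block and 41 with slide column as a block without that array. The slide column alternatives were chosen after the data had been seen. With 1 array left out, the counts ran from 0 to 7 for the untreated line difference, 0 to 10 for the line difference with LPS, 0 to 1 for LPS in SCC13-pUNO cells, 0 to 3 for LPS in SCC13-TLR4 cells, 0 to 23 for the pooled line difference and 0 to 2 for the difference in LPS response. The highest counts of the line differences, 7, 10 and 23, were those without replicate 2 of untreated SCC13-pUNO.

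Replicate numbers were not taken to pair the arrays, since 15 of 21 pairs of arrays with the same number in different groups had deviations from their group means that correlated above 0.1 (lowest -0.54), against 20 of 20 pairs in the same slide column (lowest 0.20). Of the pairs with different numbers 26 of 63 correlated above 0.1, and of those in different slide columns 21 of 64. The main fit held neither slide nor slide column. The replicate block gave 0 calls in every comparison, the pooled line difference included.

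Scaling to the array median moved the median of all probes by -0.11 in the untreated line difference, -0.17 with LPS, -0.17 and -0.23 in the LPS differences of SCC13-pUNO and SCC13-TLR4 cells and -0.14 in the pooled line difference. The sign changes by alternative, as log2 differences, were these. With array weights, the untreated line difference was -0.039 for REL and 0.70 for NFKBIL1, the LPS difference in SCC13-pUNO cells was -0.0076 for NFKBIA, the LPS difference in SCC13-TLR4 cells was 0.073 for NFKB1, 0.089 for REL, 0.12 for NFKBIA, 0.090 for NFKBIE and 0.11 for NFKBIZ, the pooled line difference was -0.10 for RELA and -0.067 for NFKBIB, and the difference in LPS response was 0.23 for RELB, 0.13 for NFKBIA and 0.14 for NFKBIE. With scaling to the array median, the untreated line difference was -0.047 for REL, the line difference with LPS was -0.11 for NFKB1, -0.0058 for RELA, -0.095 for REL and -0.056 for NFKBIB, the LPS difference in SCC13-pUNO cells was -0.15 for NFKBIA, the LPS difference in SCC13-TLR4 cells was -0.10 for RELA, -0.053 for RELB and -0.18 for NFKBIB, the pooled line difference was -0.13 for RELA, -0.071 for REL and -0.11 for NFKBIB, and the difference in LPS response was -0.048 for REL. With normexp background correction, the line difference with LPS was 0.032 for NFKBIE, the LPS difference in SCC13-pUNO cells was -0.048 for NFKBIA, the LPS difference in SCC13-TLR4 cells was 0.021 for REL and 0.10 for NFKBIE, the pooled line difference was -0.0073 for RELA, and the difference in LPS response was 0.0038 for NFKBIA and 0.18 for NFKBIE. With quantile normalization, the untreated line difference was 0.0045 for NFKBIE, the LPS difference in SCC13-pUNO cells was 0.012 for NFKBIE, and the pooled line difference was 0.0099 for NFKB1. With a replicate block, the LPS difference in SCC13-TLR4 cells was 0.035 for NFKB1, 0.022 for REL, 0.020 for NFKBIA and 0.032 for NFKBIE, the pooled line difference was -0.026 for RELA and -0.035 for NFKBIB, and the difference in LPS response was 0.10 for RELB and 0.042 for NFKBIE. With slide as a factor, the untreated line difference was 0.033 for NFKB1, 3.5e-05 for RELA, 0.031 for RELB, 0.15 for NFKBIB and 0.091 for NFKBIE, the LPS difference in SCC13-pUNO cells was 0.028 for REL, 0.012 for NFKBIB and 0.066 for NFKBIE, the LPS difference in SCC13-TLR4 cells was -0.030 for NFKBIB, the pooled line difference was 0.043 for NFKB1 and 0.022 for NFKBIE, and the difference in LPS response was -0.056 for REL and -0.042 for NFKBIB. With slide as a factor without replicate 2 of untreated SCC13-pUNO, the untreated line difference was 0.013 for NFKB1, 0.0035 for RELB, 0.17 for NFKBIB and 0.038 for NFKBIE, the LPS difference in SCC13-pUNO cells was 0.056 for REL, 0.032 for NFKBIB and 0.0099 for NFKBIE, the LPS difference in SCC13-TLR4 cells was -0.029 for NFKBIB, the pooled line difference was 0.033 for NFKB1, and the difference in LPS response was -0.082 for REL and -0.061 for NFKBIB. With slide column as a block, the untreated line difference was 0.062 for RELA, 0.013 for RELB, 0.15 for NFKBIB and 0.035 for NFKBIE, the LPS difference in SCC13-pUNO cells was 0.036 for REL, 0.028 for NFKBIB and 0.037 for NFKBIE, the LPS difference in SCC13-TLR4 cells was -0.0064 for NFKBIB and 0.090 for NFKBIZ, the pooled line difference was 0.021 for NFKB1, and the difference in LPS response was -0.063 for REL and -0.034 for NFKBIB. With slide column as a block without that array, the untreated line difference was 0.013 for RELB, 0.18 for NFKBIB and 0.0040 for NFKBIE, the LPS difference in SCC13-pUNO cells was 0.069 for REL and 0.077 for NFKBIB, the LPS difference in SCC13-TLR4 cells was -0.0046 for RELA and 0.074 for NFKBIZ, the pooled line difference was 0.016 for NFKB1, and the difference in LPS response was -0.089 for REL, -0.072 for NFKBIB and 0.033 for NFKBIZ. With 1 array left out, the ranges of the differences that changed sign were, for the untreated line difference, REL -0.038 to 0.17, NFKBIB -0.19 to 0.11, NFKBIE -0.17 to 0.059, NFKBIZ -0.31 to 0.0021 and NFKBIL1 -5.79 to 1.19. They were, for the line difference with LPS, NFKB1 -0.032 to 0.14, REL -0.0090 to 0.15, NFKBIB -0.023 to 0.32 and NFKBIE -0.13 to 0.024. They were, for the LPS difference in SCC13-pUNO cells, REL -0.088 to 0.068, NFKBIA -0.059 to 0.10, NFKBIB -0.32 to 0.020 and NFKBIE -0.092 to 0.056. They were, for the LPS difference in SCC13-TLR4 cells, NFKB1 -0.087 to 0.10, REL -0.11 to 0.10, NFKBIA -0.20 to 0.15, NFKBIB -0.11 to 0.22, NFKBIE -0.11 to 0.12, NFKBIZ -0.25 to 0.14 and NFKBIL1 -0.26 to 6.72. They were, for the pooled line difference, NFKB1 -0.081 to 0.021, RELA -0.056 to 0.094, NFKBIB -0.039 to 0.13 and NFKBIE -0.11 to 0.0061. They were, for the difference in LPS response, RELB -0.15 to 0.16, REL -0.093 to 0.11, NFKBIA -0.22 to 0.13 and NFKBIE -0.11 to 0.13.

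Precision is limited by the few arrays and by the differences between slides, which the main fit did not hold. TNFAIP3, not well above background on any array, could not be compared.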
